A study of Mus musculus with 4 samples.

Results

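The genes described here encode 10 surface proteins by which stromal progenitor cells of bone and bone marrow are sorted or defined: Pdgfra (CD140a), Pdgfrb (CD140b), Itgav (CD51), Ly6a (Sca-1), Ly6c1, Cd34, Thy1 (CD90), Eng (CD105), Nt5e (CD73) and Mcam (CD146). They were chosen by name, and all 10 were found among the 27998 genes of the deposited count tables. Single-cell RNA sequencing with a 3′ kit was performed on cells from femora and tibiae of C57BL/6 mice, with 1 library in each of 4 groups. The library WT_A1 (genotype WT) was the control of NHD13Tg, a transgenic mouse line from the Nup98-HoxD13 model of myelodysplastic syndrome. The library Control (genotype WT) was the control of Abcg2-MDS/AML, the Abcg2 model. The labels name no treatment, age, promoter or number of animals for any of the 4 groups, so pooling of animals is unknown. In all 4 groups the sort kept cells negative for CD45, TER119 and CD31 and positive for CD140a and CD51 protein. Pdgfra and Itgav therefore encode the proteins the sort itself selected, and their levels are not independent of it.

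Platelet-derived growth factor receptors alpha and beta are tyrosine kinases that carry growth signals into mesenchymal cells, and the alpha receptor is a common sorting marker of marrow stroma. Integrin alpha V pairs with several beta chains to bind matrix proteins. Sca-1 and CD34 mark, besides blood progenitors, fibroblast progenitors of connective tissue, and CD90, CD105 and CD73 together form the classical surface definition of cultured human mesenchymal stromal cells. CD146 is a marker of pericytes and, in human marrow, of stromal progenitors.

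Cells were placed in classes by the summed level of a few genes that include none of the 10 markers. In UMIs (unique molecular identifiers, each counting 1 captured RNA molecule) per 10000 UMIs of a cell, the gates were Adipoq, Lepr and Esm1 at 10 or more for the marrow stromal class (MSC), Bglap and Bglap2 at 100 for osteoblasts, Col9a1, Col9a2 and Col9a3 at 15 for chondrocytes, Dpt, Clec3b and Col14a1 at 8 for fibroblasts, and Thbs4 and Myoc at 30 for tendon cells. Of 21483 barcodes with at least 2000 UMIs, 10672 met 1 of these 5 gates only, and 1922 (8.95%) met more than 1 of the 5, mostly fibroblast with tendon. Neither these nor the gates for blood, endothelial and mural cells were met by 8100 (37.7%), and the remaining cells met none of the 5 but at least 1 of those further gates. Each class is a range of a score and not a cell type: in WT_A1, 140 of the 2102 cells meeting the fibroblast gate lay within 20% above its cut and 147 cells within 20% below it. Cells meeting 1 gate had a median of 0 for the genes of every other gate, except that fibroblasts had a median of 2.14 to 4.0 UMIs per 10000 of the tendon genes. Sums of at least 20 cells were used, which left 17 sums: 4 libraries each for MSC, fibroblast and tendon, 3 for osteoblast (none from Abcg2-MDS/AML, with 6 cells) and 2 for chondrocyte (Control with 971 cells and Abcg2-MDS/AML with 826).

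Lists of 6 further markers each were highest in the class they name for MSC, osteoblasts, chondrocytes and fibroblasts, without overlap with the other 4 classes. The tendon list (Tnmd, Scx, Fmod, Comp, Mkx and Kera) summed to 3540 to 9780 CPM (UMIs of a gene per 1000000 UMIs of the summed cells) in tendon cells and overlapped with chondrocytes (1620 to 5900 CPM) and fibroblasts (1620 to 3870 CPM). The MSC list (Cxcl12, Kitl, Hp, Gas6, Foxc1 and Ebf3) summed to between 8130 and 34600 CPM in MSC and to at most 3520 CPM in the other 4 classes. The 154 MSC of Abcg2-MDS/AML stood apart: Cxcl12, the chemokine that retains blood stem cells, was at 1930 CPM there and at 17100 to 19200 CPM in the other 3 libraries. Their median of the gate genes was 16.7 UMIs per 10000 against 58.1 in Control. Markers of blood summed to 7.37 to 2020 CPM in MSC, of endothelium to 16.6 to 35.5 CPM, and of mural cells to 150 to 354 CPM. Libraries shared 6 to 14 cell barcodes per pair, where 3.78 to 4.74 would be shared by chance. Median depth per cell ran from 4186 UMIs in Abcg2-MDS/AML to 5452 in WT_A1. With 1 library per group, no value of a group has a replicate check, and in the comparison of classes the 4 libraries, of differing genotype, stand as the replicates.

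Pdgfra RNA, the transcript behind the first positive gate of the sort, ranked highest in fibroblasts and MSC, which were not told apart from tendon cells. It was nearly lacking in chondrocytes. In MSC its level was 377.5 CPM for WT_A1, 280.8 CPM for NHD13Tg, 393.0 CPM for Control and 383.3 CPM for Abcg2-MDS/AML. In fibroblasts it was at 331.7, 313.9, 295.8 and 597.6 CPM in the same order. In chondrocytes, the 2 libraries gave 16.58 CPM (Control) and 18.56 CPM (Abcg2-MDS/AML), far below all values of the other 4 classes, the lowest of which was 92.39 CPM in tendon cells of Control. Against the mean of the other 4 classes, Pdgfra was higher by 1.29 ± 0.189 (log2 fold change ± SE) in MSC, with an adjusted p of 6.158e-05, and by 1.47 ± 0.188 in fibroblasts (3.488e-05), and lower by a log2 fold change of -3.59 ± 0.354 in chondrocytes (3.717e-06). These and the p-values below are from edgeR's quasi-likelihood test on the 17 sums with library as a block, adjusted by Benjamini-Hochberg over 11726 genes. Fibroblasts and MSC did not differ from each other beyond their spread (log2 difference 0.14 ± 0.242, edgeR adjusted p = 0.6841). Tendon cells, next in order, were not told apart from MSC (0.56 ± 0.245, edgeR adjusted p = 0.08142) or from fibroblasts (0.70 ± 0.242, 0.1077). Nor did tendon cells differ from osteoblasts, which followed (0.28 ± 0.278, edgeR adjusted p = 0.4802). MSC exceeded osteoblasts by 0.84 ± 0.277 (edgeR adjusted p = 0.02394). The call of Pdgfra as higher in tendon cells (0.59 ± 0.197, edgeR adjusted p = 0.0448) ended without WT_A1 (adjusted p = 0.1965), without NHD13Tg (0.2129) or without Abcg2-MDS/AML (0.2177), with edgeR adjustment in each.

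The share of cells with a Pdgfra UMI showed the same gap. Each cell was first thinned to 2000 UMIs, so that depth was equal. A UMI was then found in 48.5% of MSC of WT_A1 (exact 95% binomial interval 44.5 to 52.5%), 41.8% of NHD13Tg (39.5 to 44.1%), 49.2% of Control (44.3 to 54.1%) and 53.9% of Abcg2-MDS/AML (45.7 to 61.9%). In chondrocytes it was 2.57% for Control (1.67 to 3.78%) and 3.63% for Abcg2-MDS/AML (2.46 to 5.14%). Blood cells, which should lack the gene, gave 0.437% in Control (2 of 458 cells, 0.0529 to 1.57%), from a median of 24361 UMIs per cell against 7277 in chondrocytes of that library, both thinned alike. The chondrocytes of Control thus lay above the blood cells of the same library and far below its MSC. Their Pdgfra level of 16.58 CPM was, however, below the 50.21 CPM in free RNA of that library, read from barcodes with few UMIs. Chondrocytes stood at 0.117 to 0.33 times free RNA. The part of free RNA in the difference from blood cells was not tested. The intervals cover counting error only. Without thinning, 73.2% of MSC of WT_A1 had a Pdgfra UMI.

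Itgav, the other positive gate of the sort, had a narrow range over the 17 sums, from 30.27 to 124.5 CPM. It was at 113.6 CPM (WT_A1), 123.5 (NHD13Tg), 124.5 (Control) and 99.5 (Abcg2-MDS/AML) in MSC, and between 30.27 and 71.29 CPM in all 13 sums of the other classes, so MSC did not overlap with the rest. MSC were higher than the other classes by 0.97 ± 0.096 on the log2 scale (edgeR adjusted p = 1.321e-06), and osteoblasts were lower, at -0.82 ± 0.136 (edgeR adjusted p = 0.0002569). Fibroblasts, tendon cells and chondrocytes followed MSC and did not differ in sequence: the differences between neighbours were 0.06 ± 0.12 and 0.001 ± 0.15, with edgeR adjusted p-values of 0.8807 and 1. A UMI was found in 18.9 to 22.7% of thinned MSC and in 0.218% of blood cells of Control (1 of 458).

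Pdgfrb separated MSC from the other 4 classes most sharply. Its level was 399.6, 283.9, 341.7 and 442.2 CPM in MSC, in the order of libraries above. No sum of another of the 5 classes exceeded 105.1 CPM, seen in tendon cells of NHD13Tg, and osteoblasts (8.449 to 18.42 CPM) and chondrocytes (10.42 and 10.5 CPM) were lowest. The log2 fold change of MSC was 3.11 ± 0.126 (edgeR adjusted p = 3.095e-10), and MSC exceeded tendon cells, next in order, by 1.79 ± 0.165. Tendon cells and fibroblasts were not told apart (0.20 ± 0.163, edgeR adjusted p = 0.5804). Free RNA, read from barcodes with 1 to 100 UMIs, held Pdgfrb at 37.18 to 133.2 CPM, and MSC stood 2.13 to 9.19 times above it. Cells meeting a mural gate (Rgs5, Notch3, Myh11 and Kcnj8) held Pdgfrb at 388.0 CPM in Control and 412.7 CPM in Abcg2-MDS/AML but at 16.55 and 27.34 CPM in WT_A1 and NHD13Tg. In the latter pair of libraries that gate also gathered few Mcam RNAs, so what it gathered differed between the pairs. Its values are given below as a description only.

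**Figure D1:**
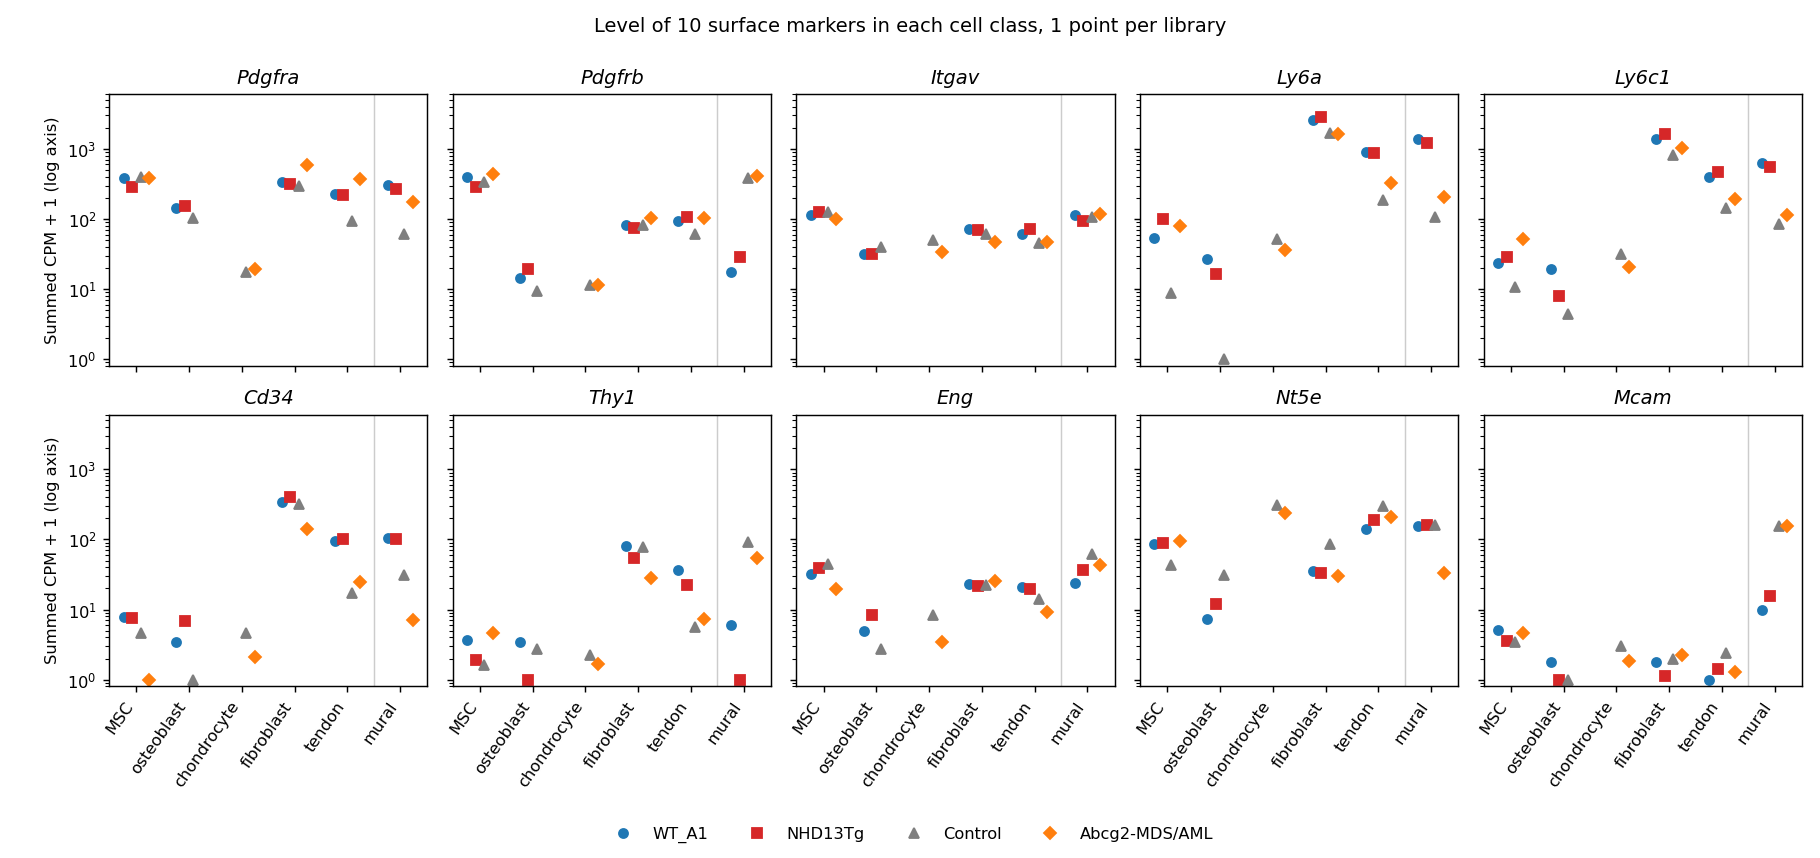
Level of each marker (summed CPM + 1, log axis) in 5 gated classes and in cells of the mural gate, with 1 point per library and no error bars because each group is 1 library. Pdgfrb and Itgav peak in MSC, Ly6a, Ly6c1, Cd34 and Thy1 in fibroblasts, Nt5e in chondrocytes and tendon cells, and Mcam stays at or below 4.023 CPM outside the mural gate.

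Of the 9 markers tested, 4 were called higher and 4 lower in MSC. Among all 11726 genes, 26.0% were called higher and 21.4% lower in that comparison. Those higher were Pdgfrb, Eng, Pdgfra and Itgav; those lower were Ly6a, Ly6c1, Cd34 and Thy1. Fibroblasts had 7 markers higher and 1 lower, against 16.5% and 12.9% of all genes. Tendon cells had 7 higher and none lower (14.7% and 7.4% of all genes), with edgeR giving 0 markers lower at an unadjusted p under 0.05 as well. Osteoblasts had 0 higher and 8 lower (17.5% and 20.6%), the exception being Pdgfra at 0.25 ± 0.24 (edgeR adjusted p = 0.4553), with edgeR giving 0 higher at an unadjusted p under 0.05. Chondrocytes had 1 higher and 5 lower (20.4% and 15.8%). Without the library Abcg2-MDS/AML, 3 markers in place of 6 were called in chondrocytes; Ly6c1, Cd34 and Eng lost their calls.

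**Figure D2:**
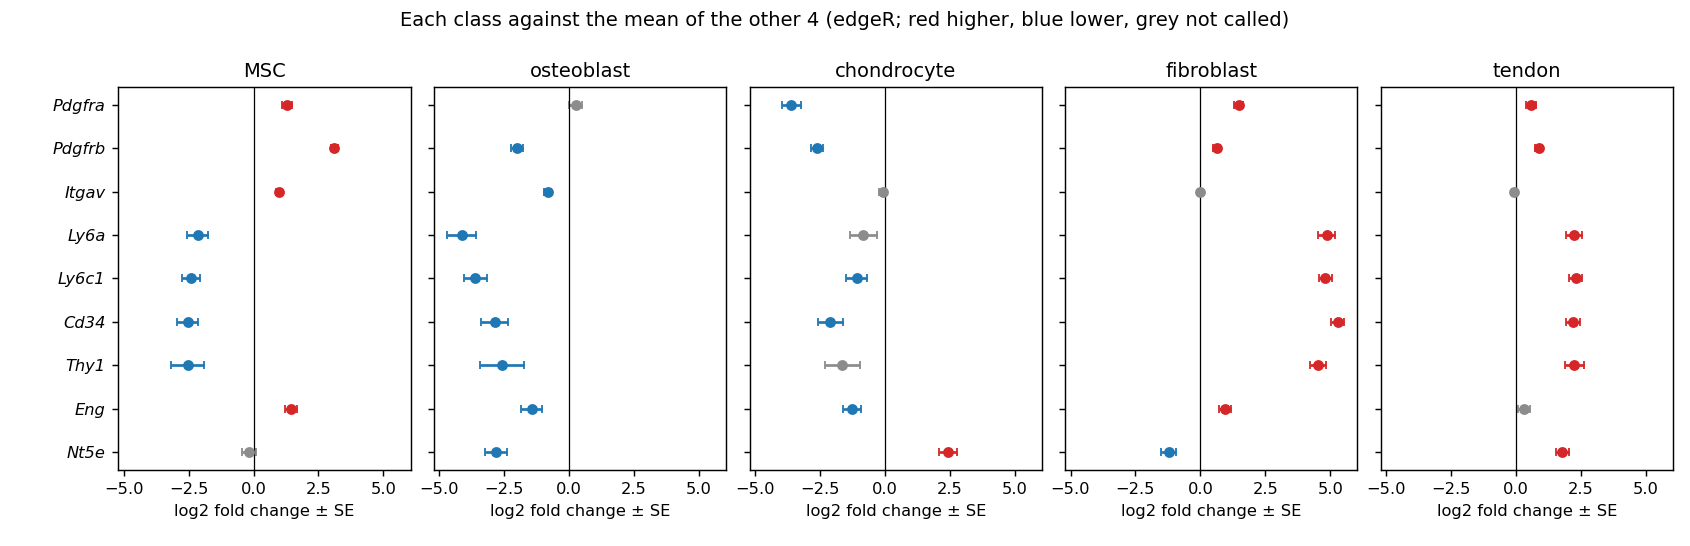
Log2 fold change of each class against the mean of the other 4, with its standard error, for the 9 markers tested over 17 sums. MSC show Pdgfrb at 3.11 and Cd34 at -2.54, and fibroblasts show Cd34 at 5.29 and Nt5e at -1.23.

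Ly6a and Ly6c1, neighbours in the Ly6 cluster that encode small lipid-anchored proteins, were the markers of the fibroblast class. In fibroblasts Ly6a was at 2615 CPM for WT_A1, 2823 CPM for NHD13Tg, 1673 CPM for Control and 1624 CPM for Abcg2-MDS/AML. It was at 53.3, 99.47, 7.932 and 77.39 CPM in MSC of the same libraries. The lowest fibroblast value lay far above the highest MSC value, and tendon cells (184.8 to 900.0 CPM) lay between them. The log2 fold change of fibroblasts was 4.86 ± 0.323 (edgeR adjusted p = 6.352e-08) for Ly6a and 4.81 ± 0.252 (1.002e-08) for Ly6c1. In MSC both were lower than the mean of the other classes, at -2.14 ± 0.406 and -2.41 ± 0.335, with edgeR adjusted p-values of 0.0005618 and 3.829e-05. Class by class, both were lower in MSC than in fibroblasts and tendon cells only. Ly6a in MSC exceeded that in osteoblasts (1.60 ± 0.579, edgeR adjusted p = 0.03679) and was not told apart from chondrocytes (-1.05 ± 0.547, 0.1339). Ly6c1 in MSC was not told apart from osteoblasts (0.96 ± 0.496, edgeR adjusted p = 0.132) or chondrocytes (-1.05 ± 0.437, 0.06387). After thinning, 91.7%, 91.0%, 74.1% and 78.2% of fibroblasts had a Ly6a UMI, against 4.75%, 8.93%, 0.719% and 8.44% of MSC. In MSC, Ly6a stood at 0.0513 to 0.338 times its level in free RNA (1038, 856.6, 100.1 and 229.1 CPM in the order of libraries above), and in fibroblasts at 2.52 to 16.7 times. Ly6c1 was called lower in chondrocytes (-1.09 ± 0.405, edgeR adjusted p = 0.04887), which ended without WT_A1 (adjusted p = 0.1143), without NHD13Tg (0.05634) or without Abcg2-MDS/AML (0.3247).

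Ly6c1 has a near copy, Ly6c2, and the last 300 bases of their longest GENCODE transcripts matched at 287 of 293 aligned bases (98.0%). Reads of these 3′ ends may be hard to tell apart, and how the authors' counting treated them was not tested. The same stretch of Ly6c1 and Ly6a matched at 249 of 289 aligned bases (86.2%). Ly6c2 was nonetheless at 0 to 4.881 CPM in every sum of the 5 classes, while it reached 789.2 CPM in the 21 blood cells of NHD13Tg, where Ly6c1 was at 62.72 CPM. In the 458 blood cells of Control it was at 13.07 CPM. Ptprc, which encodes CD45, is itself a gene of the blood gate. It was at 292.7 CPM in the blood cells of NHD13Tg and at 6.926 CPM in those of Control. In the 17 sums it was at most 9.153 CPM. The sequences before their starts are shown because these near copies differ more there than at the transcript ends. RefSeq lists a promoter for 7 of the 10 markers in the table used here (build GRCm38.p6). The 250 bases before a listed start of each, on the minus strand of chromosome 15, at chr15:75048838-75049087 for Ly6c1 and chr15:75111972-75112221 for Ly6c2, read as follows, 5′ to 3′, with the longest run of 20 bases that both share in capitals.
Ly6c1: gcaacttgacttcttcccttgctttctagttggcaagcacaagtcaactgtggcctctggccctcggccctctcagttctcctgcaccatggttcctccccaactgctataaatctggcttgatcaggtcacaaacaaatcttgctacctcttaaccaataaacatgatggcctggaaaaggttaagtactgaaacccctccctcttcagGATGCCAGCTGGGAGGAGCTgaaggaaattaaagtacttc
Ly6c2: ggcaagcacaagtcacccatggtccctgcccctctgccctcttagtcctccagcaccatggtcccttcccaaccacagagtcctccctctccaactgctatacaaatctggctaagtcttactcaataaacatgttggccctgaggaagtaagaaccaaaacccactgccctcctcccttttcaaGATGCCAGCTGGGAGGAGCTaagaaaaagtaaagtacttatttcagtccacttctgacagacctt
In a local alignment, 164 of 215 aligned bases (76.3%) matched, with 3 gaps, so the promoters were less alike than the transcript ends. The shared run begins at base 211 of the Ly6c1 window and at base 186 of the Ly6c2 window. The letters TATAAA, searched on both strands, occur in the Ly6c1 window and not in that of Ly6c2; 12.4% of 32851 windows of this length in the table hold them. Neither window holds TTCNNNGAA, a form of the site bound by STAT factors (7.02% of windows); this says only that these letters are not there.

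Cd34 and Thy1 followed the Ly6 genes. Cd34 was at 346.9, 401.5, 315.2 and 142.0 CPM in fibroblasts, libraries in the same order, and at no more than 6.704 CPM in MSC, where Abcg2-MDS/AML held none. It had the largest fold change of any marker in fibroblasts, 5.29 ± 0.246 (edgeR adjusted p = 4.102e-09). Thy1 was at 80.82, 53.57, 76.38 and 27.49 CPM in fibroblasts and at 0.6102 to 3.685 CPM in MSC, and its log2 fold change in fibroblasts was 4.52 ± 0.31 (8.766e-08 in edgeR). Fibroblasts exceeded tendon cells in 4 of the 9 markers tested, against 3.62% of all genes called higher: Ly6a by 2.10 ± 0.412, Ly6c1 by 2.01 ± 0.315, Cd34 by 2.46 ± 0.291 and Thy1 by 1.82 ± 0.331. They were lower in 1, Nt5e, by a log2 fold change of -2.41 ± 0.33 (edgeR adjusted p = 0.0004722), against 3.98% of all genes called lower. Below tendon cells, the order of chondrocytes, MSC and osteoblasts was not resolved for Cd34 or Thy1 (edgeR adjusted p for neighbours between 0.521 and 0.984). The lower Thy1 in MSC (-2.53 ± 0.632, edgeR adjusted p = 0.004282) rested on counts near 0, and the call ended with gates 1.5 times higher (-1.60, edgeR adjusted p = 0.1491), with cells of more than 1 gate kept (-1.23, 0.07236) and without WT_A1 (0.1071), as did the one in osteoblasts without WT_A1 (0.08104) or NHD13Tg (0.1591).

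Within fibroblasts, cells with a UMI of Pi16 or Dpp4, genes of a progenitor-like state of connective tissue fibroblasts, were set apart after the marker values had been seen. The split was made on thinned cells, and its values are given as a description. Cd34 was at 768.6, 797.3, 861.1 and 196.2 CPM in cells with either gene and at 310.2, 296.3, 315.4 and 130.2 CPM in the rest, in the order WT_A1, NHD13Tg, Control and Abcg2-MDS/AML. Ly6a was at 3443, 4025, 3750 and 2335 CPM with them and at 2423, 2301, 1624 and 1488 CPM without them. All 4 libraries thus had higher values of both in the cells with Pi16 or Dpp4, of which Control held 18. Nt5e went the other way in all 4 libraries, with 24.02, 5.682, 55.56 and 18.99 CPM with them against 37.49, 46.32, 72.43 and 35.32 CPM without, from 2 to 11 UMIs in the smaller group.

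Eng, a coreceptor of the TGF-beta family, was low in all classes, at 43.32 CPM or less. In MSC it was at 30.84, 37.66, 43.32 and 18.43 CPM, and in fibroblasts at 22.06, 20.92, 21.27 and 24.15 CPM, so the Abcg2-MDS/AML library overlapped with the fibroblasts. MSC were higher than the other classes by 1.46 ± 0.229 (edgeR adjusted p = 0.0001159), yet not distinct from fibroblasts (0.40 ± 0.268, edgeR adjusted p = 0.2481). Its lower level in osteoblasts (-1.44 ± 0.401, edgeR adjusted p = 0.01095) lost the call without WT_A1 (0.08822) or Control (0.08741).

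Nt5e, the enzyme that makes adenosine from AMP outside the cell, had a class order unlike that of the other markers, with chondrocytes first. It was at 314.1 CPM in chondrocytes of Control and 237.8 CPM in those of Abcg2-MDS/AML. Tendon cells had 139.8, 190.7, 300.4 and 205.5 CPM, MSC 84.14, 89.05, 41.49 and 93.97 CPM, and fibroblasts 34.15, 32.36, 85.08 and 29.15 CPM. Chondrocytes were higher by 2.44 ± 0.332 (edgeR adjusted p = 6.419e-05) and tendon cells by 1.78 ± 0.246 (0.0001173), without a difference between those classes beyond their spread (0.52 ± 0.383, edgeR adjusted p = 0.3193). Fibroblasts were lower, at -1.23 ± 0.291 (edgeR adjusted p = 0.005367), which ended without NHD13Tg (0.05939). In thinned chondrocytes, 38.3% (35.2 to 41.5%) of Control and 34.3% (31.0 to 37.6%) of Abcg2-MDS/AML had an Nt5e UMI, against 2.18% of blood cells of Control. Nt5e exceeded its level in free RNA in each library of tendon cells and chondrocytes and in none of the other 3 classes.

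Mcam was at 0 to 4.023 CPM in all 17 sums and did not pass the low-count filter of the main fit. In cells of the mural gate it reached 152.1 CPM in Control (20 UMIs in 29 cells) and 152.3 CPM in Abcg2-MDS/AML (76 UMIs in 105 cells), against 8.914 and 14.72 CPM in WT_A1 and NHD13Tg. The 105 cells of Abcg2-MDS/AML held 64.4% of all its Mcam UMIs in cells. After thinning, a UMI was seen in 24.1% of these cells of Control (7 of 29) and in 23.8% of those of Abcg2-MDS/AML (25 of 105). In WT_A1 and NHD13Tg it was seen in 1.08% (1 of 93) and 4.92% (3 of 61) of mural-gate cells. When genes of low counts were kept, Mcam was higher in MSC than in the other classes by 2.17 ± 0.572 (edgeR adjusted p = 0.004761), from 2 to 22 UMIs per library.

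Over the 17 sums, the markers fell into sets by the Pearson correlation of log2(CPM + 10), which describes these sums and shares their libraries and classes. Ly6a and Ly6c1 had r = 0.988, Cd34 and Thy1 0.971, and Ly6c1 and Cd34 0.954. Pdgfrb and Itgav had r = 0.89, and Pdgfrb and Eng 0.869. Pdgfra stood between the sets, at 0.754 with Pdgfrb and 0.433 with Ly6a, and Nt5e was near 0 with most and at -0.398 with Pdgfra. Of 8129 genes compared, those most like Ly6c1 were Ly6a, Tnxb (0.983) and Fbln2 (0.98); most like Ly6a, after Ly6c1, were Tmod2 (0.975) and Mfap5 (0.972). Cd34 was most like Dpt (0.977), itself a gate gene of the fibroblasts, Thy1 and Anpep (0.969). Thy1 was most like Cd34, Ociad2 (0.968) and Clec3b (0.963), also a gate gene. The genes nearest to Pdgfra were Dennd4c (0.951), Acap2 (0.949) and Ifitm3 (0.931), to Pdgfrb Ppp1r10 and Peak1 (both 0.964) and Plk2 (0.961), and to Itgav Pgrmc1 (0.963), Nudt4 and Sdc1 (both 0.961). Eng was nearest to Tmod3 (0.953), Akap12 (0.95) and Stat6 (0.945), Nt5e to Id1 (0.932), Rasd1 (0.922) and Pdzrn3 (0.909), and Mcam to Plekhh2 (0.939), Prr14l (0.905) and Cnot7 (0.904), the last set on values of at most 4.023 CPM.

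Genes that act with the markers were described by class from 6 lists. Their counts stand beside calls of 26.0% higher and 21.4% lower among all genes in MSC, 17.5% and 20.6% in osteoblasts, 20.4% and 15.8% in chondrocytes, and 16.5% and 12.9% in fibroblasts. Of 4 testable PDGF ligands and related genes, Pdgfa and Pdgfd were called higher and Pdgfc and Pdgfrl lower in MSC, with a median log2 fold change of -1.23 against 0.01 over all genes. All 4 were called higher in osteoblasts, where Pdgfrb was called lower and Pdgfra was not called (median 2.05 against -0.08), led by Pdgfd at 3.94 ± 0.367 (edgeR adjusted p = 1.415e-06). Of 4 beta chains that pair with integrin alpha V, 3 were higher in fibroblasts (median 1.35 against -0.01), led by Itgb3 at 3.15 ± 0.389 (edgeR adjusted p = 2.489e-05), and 3 were lower in chondrocytes (median -1.72 against 0.02), with Itgb3 lowest at -3.65 ± 0.878. In MSC, Itgb1 was higher at 0.60 ± 0.103 and Itgb8 lower at -1.36 ± 0.458.

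Of the other Ly6 family genes, 3 of 9 could be tested, with 1 higher and 1 lower in MSC (median -0.955 against 0.012). In fibroblasts 2 were higher and 1 lower (median 2.044 against -0.009). Ly6e was higher in MSC (1.42 ± 0.261, edgeR adjusted p = 0.0004267) as well as in fibroblasts (2.41 ± 0.247, 4.211e-06), unlike Ly6a and Ly6c1. Cd59a was lower in MSC (-1.79 ± 0.425, edgeR adjusted p = 0.003029) and in fibroblasts (-1.48 ± 0.391, 0.01048). Of 10 receptors of the TGF-beta and BMP families, with which endoglin acts, 6 were higher and 1 lower in MSC (26.0% and 21.4% of all genes; median 0.72 against 0.01), with Acvr2a at 2.30 ± 0.267 and Tgfbr2 at -0.80 ± 0.171. In osteoblasts 0 were higher and 7 lower (median -0.90 against -0.08), with Acvrl1, the type I receptor that partners endoglin, at -5.42 ± 0.589 (edgeR adjusted p = 6.108e-06); in fibroblasts it led the 6 that were higher, at 2.68 ± 0.217. Of 9 testable genes of adenosine handling, 6 were higher and 2 lower in MSC (median 1.03 against 0.01), with Entpd1, which supplies the AMP that CD73 cleaves, at 3.70 ± 0.794 (edgeR adjusted p = 0.00201). The lowest was Adora2b, at -3.81 ± 0.92 (edgeR adjusted p = 0.003369). Chondrocytes, highest in Nt5e, had 2 higher and 1 lower (20.4% and 15.8% of all genes; median -0.55 against 0.02), with Enpp1, another source of AMP, at 2.15 ± 0.287 and Entpd2 at -2.10 ± 0.498. Of 24 testable genes for other surface markers, 7 were higher and 10 lower in MSC (26.0% and 21.4% of all genes; median -0.52 against 0.01), from Vcam1 at 5.92 ± 0.31 to Pdpn at -4.47 ± 0.44, and 11 were higher and 5 lower in fibroblasts (16.5% and 12.9%; median 0.54 against -0.01), from Dpp4 at 6.34 ± 0.566 to Alcam at -3.31 ± 0.935. In tendon cells, 2 of 4 beta chains, 6 of 10 receptors (Acvrl1 among them) and 13 of 24 other surface markers were higher. In the same order 0, 0 and 1 were lower, against 14.7% of all genes higher and 7.4% lower. Dpp4 led the other surface markers there, at 3.95 ± 0.788 (edgeR adjusted p = 0.003147).

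The sort takes cells in which CD140a and CD51 stand on the same cell, and co-detection of their RNAs was next counted in thinned cells. Both Pdgfra and Itgav had a UMI in 10.1% (7.9 to 12.8%) of MSC of WT_A1, 8.76% (7.5 to 10.2%) of NHD13Tg, 10.8% (7.98 to 14.2%) of Control and 11.0% (6.56 to 17.1%) of Abcg2-MDS/AML. The product of the separate shares gave 9.15%, 8.73%, 10.4% and 12.2%, so the 2 RNAs were found together 0.901 to 1.11 times as often as the product. Neither RNA was seen in 34.4 to 46.1% of MSC, 30.8 to 51.5% of fibroblasts and 88.7 to 91.5% of chondrocytes at 2000 UMIs. A cell without a UMI may still carry the RNA at this depth. When cells were not thinned, the share of MSC with both was 28.7%, 28.2%, 23.7% and 20.1% in the same order.

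Ly6a and Ly6c1 were found together in MSC in 33 of 3005 cells, where the product of their shares within libraries gave 5.552 cells. These were 4 cells of WT_A1, 24 of NHD13Tg and 5 of Abcg2-MDS/AML, each 5.92 to 6.01 times the product. Control had 0 of 417 cells with both, with an exact 95% interval up to 0.881%. Only 3 of its MSC held Ly6a and 3 held Ly6c1, too few to show whether these RNAs occur together. In tendon cells they were together in 441 of 2401 cells against a product of 250.5, at ratios of 1.54 to 2.47, and in fibroblasts, where most cells carry each, in 2289 of 3166 against 2163. MSC with a Ly6a UMI also carried fibroblast genes more often: a UMI of Dpt, Clec3b or Col14a1 was seen in 3 of 30 such cells of WT_A1 and 1.83% of the 601 without Ly6a. The values were 9.32% of 161 and 1.1% of 1642 in NHD13Tg, and 38.5% of 13 and 2.13% of 141 in Abcg2-MDS/AML. The MSC with Ly6a had fewer UMIs of Cxcl12, 30.1 against 39.9 per thinned cell in WT_A1 and 27.7 against 37.1 in NHD13Tg. They had a higher median depth before thinning, 4952 against 4361 UMIs in WT_A1 and 4727 against 4426 in NHD13Tg. The part of mixed barcodes and of free RNA in these co-detections was not tested.

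Pdgfra, Ly6a and Cd34 were all found in 575 of 3166 fibroblasts against a product of 515.2 and in 53 of 2401 tendon cells against 24.86. Among MSC, 6 of 3005 cells held all of them, against a product of 0.7036. The set Thy1, Eng and Nt5e was found together in 0 cells of MSC, fibroblasts, tendon cells, chondrocytes or osteoblasts, where the products summed to 0.0636, 0.7093, 0.3804, 0.01872 and 0 cells. In the 8100 cells without a gate, 2 held all 3 RNAs, against a product of 0.878.

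**Figure D3:**
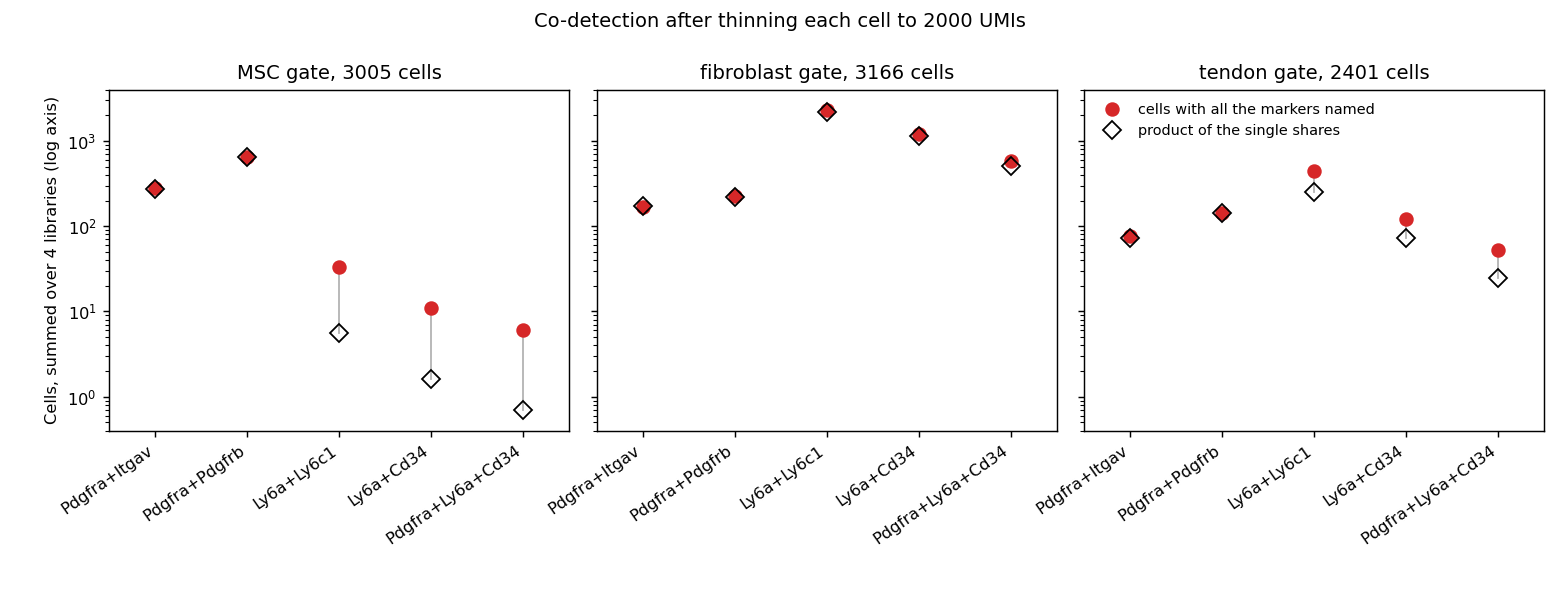
Number of cells (log axis) in which all markers named on the x axis had a UMI after thinning to 2000 UMIs, beside the number given by the product of the single shares in each library, for 3 classes summed over 4 libraries. Pdgfra with Itgav lies on the product in MSC (284 against 276.9 cells), whereas Ly6a with Ly6c1 lies above it (33 against 5.552).

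Between the models and their controls, no marker was called when both pairs were fitted together, with pair as a block and 1 residual degree of freedom. In MSC, 0 of 8 testable markers passed in edgeR (0.0% of 10181 genes in either direction). Ly6a (1.84 ± 0.506) and Ly6c1 (1.19 ± 0.5) had unadjusted p-values of 0.007053 and 0.04558 in edgeR. Both were higher in 2 of 2 pairs. For Ly6c1 in NHD13Tg against WT_A1, however, the counting interval of the log2 ratio included equality (0.305, -0.088 to 0.714). That ratio was -0.51 without the barcodes of highest doublet score. DESeq2 called 0, with 1 marker, Ly6a, under an unadjusted p of 0.05. In fibroblasts, 0 of 9 passed (0.0% of genes higher and 0.0362% lower) with Thy1 at -0.84 ± 0.299 (unadjusted p = 0.01805, edgeR) and lower in 2 of 2 pairs; DESeq2 called 0, with 0 under an unadjusted p of 0.05. In tendon cells, 0 of 9 passed in edgeR (0.0% of genes in either direction), with 0 under an unadjusted p of 0.05; DESeq2 called 0, with Pdgfra under an unadjusted p of 0.05. The call of Ly6a in MSC appeared with cells of at least 4000 UMIs (1.78, edgeR adjusted p = 0.03058) and with genes of low counts kept (1.85, edgeR adjusted p = 4.823e-05), and over all its alternatives the adjusted p ran from 4.823e-05 to 0.9968. Leaving out a library would leave 1 pair and no residual degrees of freedom.

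Within each pair, 1 library was compared with 1, so the differences below compare libraries and carry no p-value. A marker was considered in a class at 20 CPM or more in either library and counted as different at 1.5-fold or more with a 95% counting interval that excludes equality. In NHD13Tg against WT_A1, 4 of 27 considered values of markers in classes differed. In MSC, Ly6a was 1.866-fold higher, at 99.47 CPM (869 UMIs) against 53.3 CPM (159 UMIs), and was the only 1 of 7 markers that differed; 4.43% of 6169 genes were higher and 7.98% lower there. This ended without the barcodes of highest doublet score (log2 ratio 0.55 in place of 0.90) and with cells of more than 1 gate kept (0.25). In all 4 libraries Ly6a in MSC was below its level in free RNA. Subtraction of free RNA at 10% left no ratio for this pair, because it removed all Ly6a from the MSC of WT_A1, though not from those of NHD13Tg.

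Thy1 was 1.509-fold lower in fibroblasts of NHD13Tg (53.57 against 80.82 CPM) and 1.655-fold lower in its tendon cells (21.51 against 35.59 CPM), where 3.53% and 7.41% of genes were lower and 1.69% and 3.1% higher. The former fell short of 1.5-fold without the barcodes of highest doublet score (log2 ratio -0.55) and the latter with gates 1.5 times higher (-0.49). Ly6a was 1.722-fold lower in osteoblasts (15.27 against 26.28 CPM, 29 and 33 UMIs), against 6.11% of genes lower and 5.21% higher, but the direction turned with gates 1.5 times higher (log2 ratio 1.73), and the ratio was -2.56 without the barcodes of highest doublet score. Pdgfra (280.8 against 377.5 CPM) and Pdgfrb (283.9 against 399.6 CPM) in MSC had log2 ratios of -0.43 (-0.529 to -0.324) and -0.49 (-0.593 to -0.392), which exclude equality but are smaller than 1.5-fold.

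In Abcg2-MDS/AML against Control, 12 of 27 considered values differed, 7 higher and 5 lower, beside a broad change: in the 4 classes, 7.76% to 17.9% of genes were higher and 17.7% to 32.2% lower. Pdgfra was 2.02-fold higher in fibroblasts (597.6 against 295.8 CPM; log2 ratio 1.01, 0.835 to 1.197) and 4.04-fold higher in tendon cells (373.4 against 92.39 CPM; 2.02, 1.80 to 2.24), while MSC had 383.3 against 393.0 CPM (-0.04, -0.269 to 0.192). The level of the gene behind the sort thus differed in the fibroblast and tendon gates and not by 1.5-fold in MSC. Free RNA of Abcg2-MDS/AML held Pdgfra at 158.8 CPM against 50.21 CPM in Control, and its part was not tested. With free RNA subtracted at a fixed 10%, the log2 ratios were 0.999 in fibroblasts and 2.04 in tendon cells. In the same tendon-gate cells the tendon list summed to 3540 CPM against 9300 in Control, the osteoblast list to 6010 against 17000 and the chondrocyte list to 549 against 2050 CPM, and the part of this difference in makeup was not tested. Of genes tested, 11.8% were higher in fibroblasts and 17.9% in tendon cells.

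In fibroblasts, Cd34 was 2.22-fold lower (142.0 against 315.2 CPM), Thy1 2.78-fold lower (27.49 against 76.38 CPM) and Nt5e 2.92-fold lower (29.15 against 85.08 CPM), where 28.5% of genes were lower. With free RNA subtracted, the log2 ratio of Nt5e was -2.70 in place of -1.55. Ly6a did not follow them, at 1624 against 1673 CPM (log2 ratio -0.04, -0.125 to 0.04), nor did Ly6c1, at 1018 against 829.5 CPM. The fibroblasts of Abcg2-MDS/AML had a median of 14.8 UMIs per 10000 of the gate genes against 23.5 in Control, and the tendon list summed to 1620 against 3870 CPM; the part of these differences was not tested. In tendon cells, Ly6a was 1.746-fold higher (322.6 against 184.8 CPM), which fell below 1.5-fold with gates 1.5 times higher (log2 ratio 0.57) and with cells of more than 1 gate kept (0.29), and Pdgfrb was 1.709-fold higher (103.2 against 60.36 CPM). In chondrocytes, Ly6c1 was 1.563-fold lower (19.42 against 30.37 CPM), where 32.2% of genes were lower. Its levels there were 0.112 to 0.366 times those in free RNA, and subtraction of free RNA at 10% moved the log2 ratio from -0.65 to -3.42.

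In MSC, Ly6a was 9.76-fold higher (77.39 CPM from 42 UMIs against 7.932 CPM from 13), Ly6c1 5.28-fold (51.59 against 9.763 CPM, 28 and 16 UMIs) and Nt5e 2.27-fold (93.97 against 41.49 CPM), while Eng was 2.35-fold lower (18.43 against 43.32 CPM, 10 and 71 UMIs); 12.7% of genes were higher and 17.7% lower. These are the 154 cells with low Cxcl12 described above, and 45 of the 189 cells that met this gate lay within 20% above its cut. With gates 1.5 times higher the log2 ratios were 3.06, 2.90, 0.68 and -0.79 in the same order. With cells of at least 4000 UMIs, Nt5e was at 0.53, under 1.5-fold, and without the barcodes of highest doublet score at 2.63. Ly6c1 was at 3.53 without those barcodes and at 4.84 with free RNA subtracted, in place of 2.40. Free RNA of Control held Ly6a at 100.1 CPM. Its subtraction at 10% removed all Ly6a from the MSC of Control and left no ratio for Ly6a. With cells of more than 1 gate kept, Ly6a was at 2.13. The fibroblast list summed to 2260 CPM in these cells, with 2 of its 6 genes at 0, against 630 CPM in MSC of Control, with 1 at 0. The part of this shift in makeup was not tested.

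**Figure D4:**
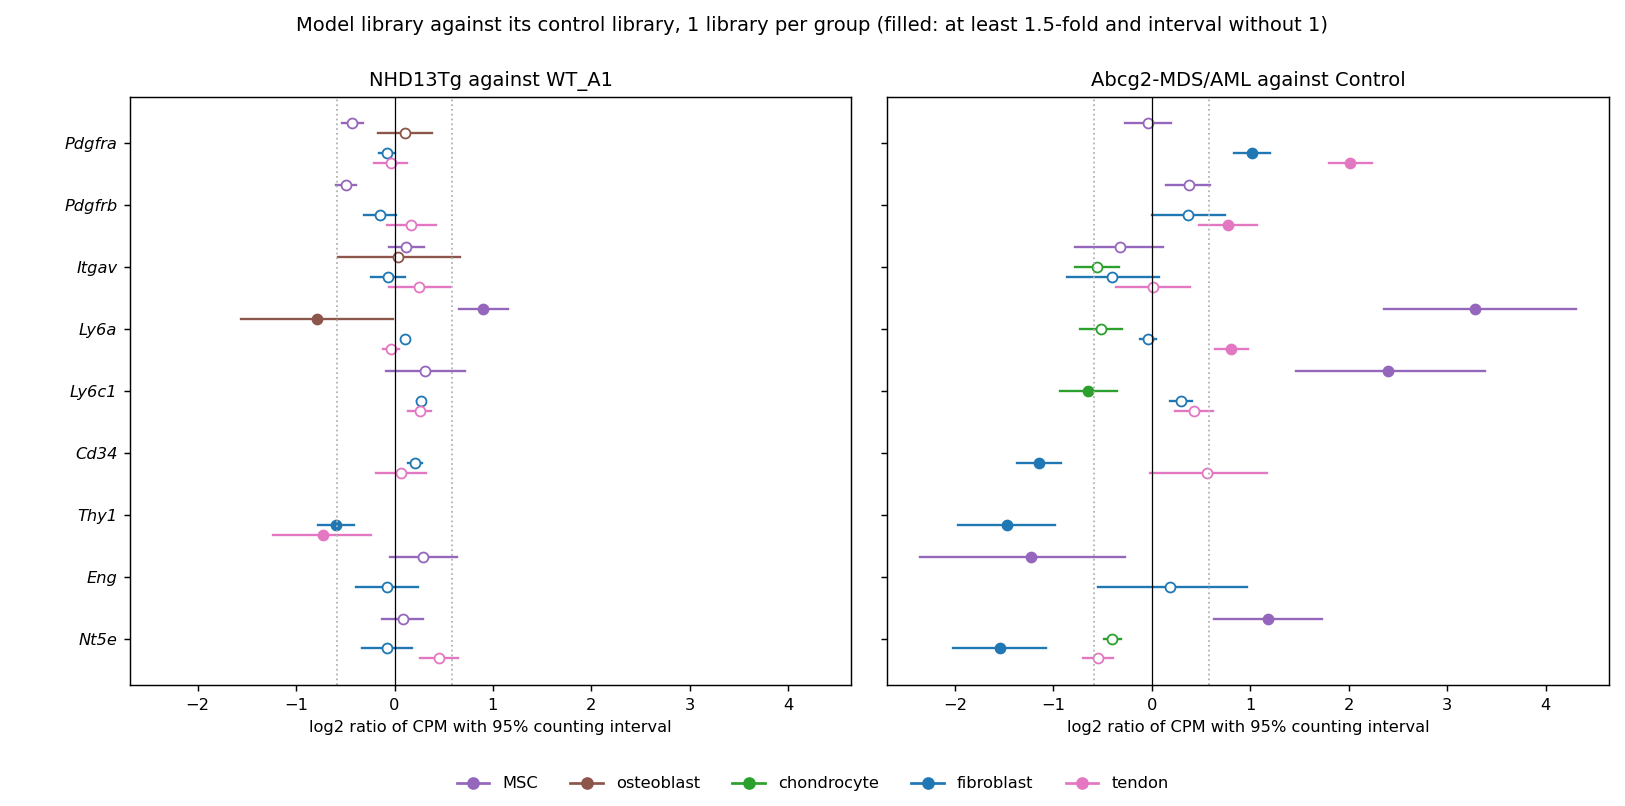
Log2 ratio of CPM in the model library to its control library for each marker and class considered, with 95% counting intervals; filled points are at least 1.5-fold with an interval that excludes 0, and dotted lines mark 1.5-fold. In the NHD13 pair the points lie near 0, with 4 filled, and in the Abcg2 pair 12 are filled, from Ly6a in MSC at 3.29 to Nt5e in fibroblasts at -1.55.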

How the data were processed

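For each of 4 libraries (10x Chromium 3′ kit), the authors deposited a matrix of unnormalized UMI counts. The submitters' processing notes name Cell Ranger 3.1.0 and Seurat 3.2.3. The genome build is not given in the sources used here. Barcodes with at least 2000 UMIs, 500 genes and at most 10% mitochondrial UMIs were kept (4973, 5766, 5158 and 5586 cells). Counts of cells that met 1 gate were summed per library and class, given as CPM of the sum, and tested with edgeR 4.0.16 (quasi-likelihood, TMM, filterByExpr, library block) in R 4.3.3; DESeq2 1.42.0 was an alternative. Shares used cells thinned to 2000 UMIs, with exact Clopper-Pearson intervals; intervals of ratios are exact conditional binomial. Shares are of cells with a UMI, and levels of different genes are not compared, since 3′ counts are not per length. Nothing says that libraries came from separate animals, so p-values measure only the spread between these sums. Scrublet, run through scanpy 1.11.5, marked 0 or 1 cell per library at its own threshold and thus had not worked; no doublet was removed, and an alternative removed the highest scores at 0.8% per 1000 cells. The tests were checked on simulated data.

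The markers, gates and related lists were chosen with earlier results of these data known. Named besides the 10 markers are the 3 genes most like each by Pearson correlation (at least 20 CPM in 1 sum), the highest and lowest called gene of each related list, Ptprc and Ly6c2. Pdgfa, Pdgfrl, Cxcl12 and Pi16 fall outside this rule and were named after their values were seen. The lists were PDGF ligands and Pdgfrl, integrin beta chains, Ly6 family, TGF-beta and BMP receptors, adenosine handling and other surface markers. Alternatives were 4000 UMIs per barcode, gates 1.5 times higher, multi-gate cells kept, doublet removal, DESeq2 or its size factors, no low-count filter, no library block, each library left out, subtraction of free RNA, a minimum of 5 CPM and no thinning.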

Additional observations from a re-analysis of the deposited data

How the results depend on the processing

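The counts of markers called between classes stayed within 1.5 times of those reported under 11 of 12 alternatives for chondrocytes and all 12 for the other 4 classes; leaving out 1 library gave 3 to 7 calls in chondrocytes in place of 6. The library block moved no count by more than that. In both pairs together, 1 marker, Ly6a in MSC, was called with 4000 UMIs per barcode and 1 with no low-count filter, in place of 0. In NHD13Tg against WT_A1, 2 values differed with the highest Scrublet scores removed and 2 with free RNA subtracted, in place of 4. The share of MSC with both Pdgfra and Itgav was 28.7%, 28.2%, 23.7% and 20.1% without thinning and 25.8%, 20.5%, 25.8% and 25.7% at 4000 UMIs, in the order WT_A1, NHD13Tg, Control and Abcg2-MDS/AML. Several values turned sign, and the cause was not tested. Of log2 ratios within a pair, the one that had counted as different was Ly6a in osteoblasts of NHD13Tg (1.73 with gates 1.5 times higher). Others, not counted as different, included Ly6c1 in the same class (-1.42 to 2.05 with those gates), Cd34 there (1.28 to -2.19 with the highest Scrublet scores removed) and Ly6c1 in MSC of NHD13Tg (0.31 to -0.51, likewise). In Abcg2-MDS/AML they included Cd34 (0.56 to -0.52) and Thy1 (0.44 to -0.88) in tendon cells with multi-gate cells, and Pdgfra in chondrocytes (0.16 to -2.09 with free RNA subtracted). Between classes these were Nt5e in MSC (-0.426 to 0.206 with 1 library left out, highest without Control), Pdgfra in osteoblasts (-0.003 with no library block), Itgav in chondrocytes (0.046 with gates 1.5 times higher), in tendon cells (-0.171 to 0.002 with 1 left out, highest without Control) and in fibroblasts (0.002 with multi-gate cells, 0.013 by DESeq2, 0.014 with no filter, 0.007 with no block, and -0.087 to 0.044 with 1 left out, above 0 without Control or without Abcg2-MDS/AML at 0.035). In both pairs together these were Pdgfrb in MSC (-0.045 with multi-gate cells, -0.014 with the highest Scrublet scores removed, -0.009 with no filter), Itgav in MSC (0.001 with DESeq2 size factors), Eng in MSC (0.075 at 4000 UMIs), Itgav in fibroblasts (0.022 with gates 1.5 times higher), Cd34 in tendon cells (-0.192 with multi-gate cells) and Nt5e in tendon cells (-0.033 with gates 1.5 times higher). Mcam did not pass the low-count filter in the main setting. It passed with multi-gate cells kept, at 1.98 ± 0.479 in MSC (edgeR adjusted p = 0.003762), and without Control, at 2.69 ± 0.64.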

Other observations

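Cells that met none of the gates, which are put in no comparison, also carried the markers. In these 8100 cells Nt5e was at 163.6 CPM for WT_A1, 158.3 CPM for NHD13Tg, 333.1 CPM for Control and 296.0 CPM for Abcg2-MDS/AML. In thinned cells of this kind, Ly6a and Ly6c1 were found together in 1208 cells, where the product of their shares within libraries gave 593.8, at ratios of 1.65 to 4.24.

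Thy1 was at 91.29 CPM in the 29 mural-gate cells of Control and at 54.1 CPM in the 105 of Abcg2-MDS/AML, and at 5.094 and 0 CPM in those of WT_A1 and NHD13Tg, where Ly6a was at 1396 and 1209 CPM. Over the 4 libraries, Thy1 and Mcam were found together in 8 of 288 mural-gate cells.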
